A study of Mus musculus with 6 samples.

Results

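Chromatin remodelers and histone-modifying enzymes were followed in the 2 domains of ETX-embryos, which are models of the early embryo built from mouse embryonic stem cells (ESC), trophoblast stem cells (TSC) and extraembryonic endoderm (XEN) cells. Members were chosen by a rule on names. It takes genes whose symbol begins with or equals Smarc, Arid, Chd or Cbx, or the Polycomb symbols Ezh, Eed, Suz12, Jarid2, Ring1 and Rnf2. Smarc and Arid symbols cover SWI/SNF and other genes, and Cbx symbols cover Polycomb and HP1 proteins. The rule also takes the SET domain (Setd, Ehmt, Kmt2), demethylase (Kdm), acetyltransferase (Kat), deacetylase (Hdac, Sirt) and bromodomain (Brd) families. The rule found 96 genes of 12826 in the deposited table, and 91 of them were among the 10914 genes that passed a mean of 1 FPKM (fragments counted per kilobase of transcript and scaled for library size). Among those that did not pass it were Arid3c, Hdac10, Hdac11 and Kdm4a. Kdm6b appears as an entry joined with Tmem88, so its values cannot be given to either gene, and Smarca5-ps is a pseudogene copy that may share reads with Smarca5. The KMT2 family is listed under older symbols that the name rule does not take.

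The structures were made with a T/Brachyury-GFP reporter line, were grown in IVC media and received no treatment. The TSC part was dissected away and the ESC part was cut lengthwise; the GFP-positive piece was taken as prospective posterior and the GFP-negative piece as prospective anterior. Each piece gave 1 Smart-seq2 library, so the 6 libraries are an anterior and a posterior piece of each of 3 individual embryos, A, B and C. All groups therefore share the reporter, the medium and the removal of the trophoblast part, and the pieces were chosen by T, so a difference in T or in genes expressed with it is no finding.

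Remodelers of the SWI/SNF (BAF), ISWI and CHD families use ATP to slide or evict nucleosomes. Histone-modifying enzymes add or remove the marks that go with active genes, such as H3K4 methylation and histone acetylation, or with silenced ones, such as H3K27 methylation by Polycomb complex PRC2 and H3K9 methylation bound by HP1 proteins. In the epiblast of the mouse embryo these enzymes are known for setting which genes can respond when cells leave pluripotency and enter the primitive streak, and embryos that lack PRC2 or Setdb1 stop developing around implantation or gastrulation.

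Libraries differed in ways that bear on every value below. Between 9335 and 11082 genes were above 0 in the anterior libraries and between 10260 and 12141 in the posterior ones, and relative depth, set to 1 in anterior A, lay between 1.40 and 2.82 in the others when each was set against anterior A. Of the 10 pairs among the other libraries, 7 gave a direct ratio within 0.05 of that on the log2 scale and 3 were off by a doubling, so the order of the other libraries in depth is not settled. T itself was at 0 FPKM in anterior A and B, at 5.03 and 15.6 FPKM in posterior A and B, and in embryo C at 0 FPKM in the library labelled posterior but 42.5 FPKM in the one labelled anterior. The T levels thus go against the labels in embryo C, while the mean of 10 streak markers followed them there, at 0.79 in the library labelled anterior C and 3.64 in the library labelled posterior C, in log2(FPKM + 1). Epiblast markers averaged 1.33 to 3.39 in the anterior and 3.78 to 4.87 in the posterior libraries, and hypoxia response genes 5.70 to 5.92 and 3.24 to 4.28. Of 8 visceral endoderm markers in the table, 1 was above 0 in the library labelled anterior C, against 5 to 8 in the other libraries. The 10 parietal endoderm and XEN markers averaged 1.82 to 6.12 in the anterior and 4.04 to 5.03 in the posterior libraries, and the 9 trophoblast markers 2.51 to 2.83 and 3.39 to 4.06. Of these 9 trophoblast markers 5 had a fitted difference above 0, as had 64.9% of all genes. Eomes, with a difference of 4.41, is among the 5 and is also in the streak list. In such bulk pieces fewer cells of a type and less RNA per cell cannot be told apart, and the part of depth or cell makeup in the results below was not tested.

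The first question was whether the chromatin genes differ between the domains. Most were broadly expressed: 76 of the 91 tested members (83.5%) were above 0 in all 6 libraries, against 66.9% of all genes tested, and the median member had a mean level of 3.78 on the log2(FPKM + 1) scale against 2.98. The median range over the 6 libraries was 2.40 for members and 3.03 for all genes. No member differed between domains at an adjusted p under 0.05 (limma with the embryo as a block, Benjamini-Hochberg over all genes tested), where the background was 0% of all genes, and the smallest adjusted p of a member was 0.617. At an unadjusted limma p under 0.05, 1 member (1.1%) was higher in the posterior domain, where the background was 7.24%, and 0 members were higher in the anterior domain, where it was 0.788%. The median standard error of a member's difference was 0.92 on the log2 scale, so differences of the size seen here were mostly not detectable with 3 embryos.

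Counts of direction put the members below the background on the posterior side and above it on the anterior side. That background was not matched for level, and the median of the mean levels was 2.98 for all genes against 3.78 for members. In 3 of 3 embryos 14 members (15.4%) were higher in the posterior piece, against 21.5% of all genes, and 13 members (14.3%) were higher in the anterior piece, against 8.25%. After quantile normalization, which moved the median difference of all genes from 0.43 to -0.03, these counts were 8 (8.79%) and 20 (22%), against 14.5% and 17.4% of all genes. Every posterior library exceeded every anterior one for 7 members (7.69%; background 12.3%), which were Arid2, Arid1b, Setdb1, Setd1b, Kat2a, Kdm1a and Cbx5. The reverse held for 5 members (5.49%; background 3.77%), Setd5, Setd8, Smarcal1, Kdm4c and Kdm2a. The median posterior minus anterior difference was 0.27 for the 91 members and 0.43 for all genes, and by embryo it was 0.84, -0.29 and -0.07 in A, B and C against 0.91, 0.02 and 0.17. The member median was -0.10 after quantile normalization, -0.04 after centring each library on its median and -0.07 without embryo A, so the sign of the members' median is not settled. The gap to the median of all genes cannot move when the block is dropped or each library is centred; in the other 8 settings run the members' median lay below that of all genes, by 0.07 to 0.31.

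**Figure D1:**
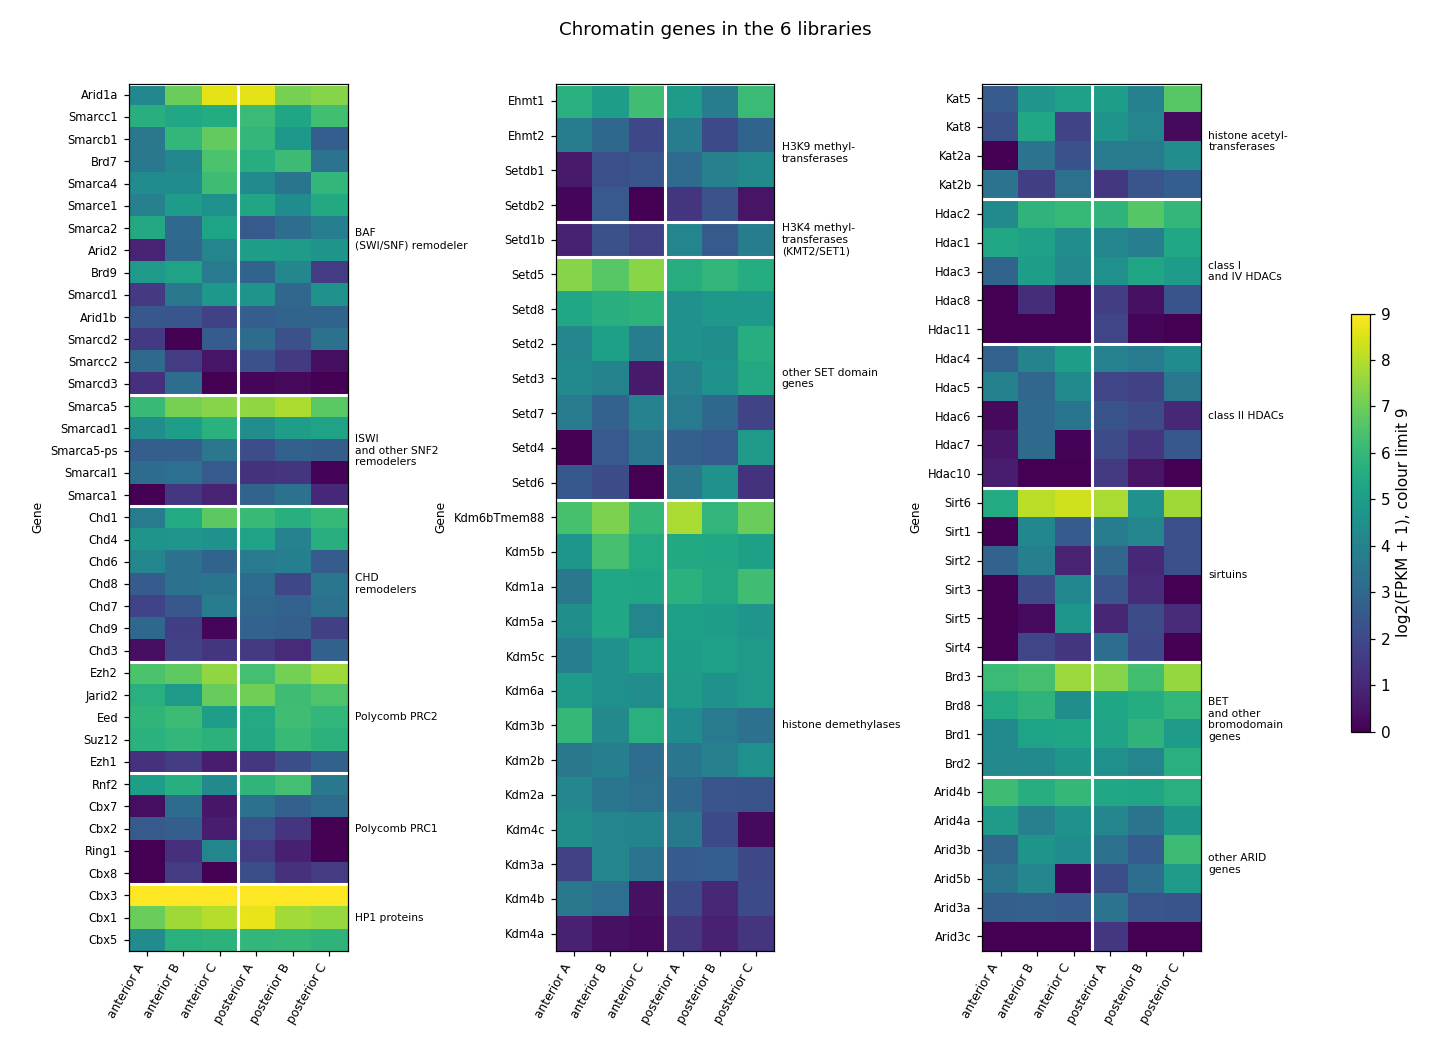
Heat map of 94 of the 96 chromatin genes (rows, by family and falling mean level) in the 3 anterior and 3 posterior libraries (columns); colour is log2(FPKM + 1), with 9 as the upper colour limit. Cbx3 is the highest row (10.49 to 12.46), Suz12 and Kdm6a are nearly even across the columns, and anterior A holds more cells at 0 than posterior A, which holds none.

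Of the 20 leading members, the 10 per direction described below, 13 have a RefSeq promoter window (build GRCm38.p6, 250 bases before to 50 after the start). The windows of the 2 with the smallest p in each direction are shown, because the hypoxia response genes were higher in the anterior libraries and the shared core of hypoxia response elements can be read by eye. Capitals mark matches to the core, ACGTG or GCGTG on either strand, with overlapping matches joined; ACGTG also lies inside the E-box CACGTG. Kdm4c and Setdb1 hold matches, and Smarcal1 and Kat2a hold none in these windows, nor do Setd5 and Smarca1, the next in each direction. Of the 13 leading members with a window 8 hold a match. The windows are chr4:74251629-74251928 (plus strand) for Kdm4c, chr1:72583001-72583300 (plus strand) for Smarcal1, chr3:95357153-95357452 (minus strand) for Setdb1 and chr11:100712418-100712717 (minus strand) for Kat2a, each written 5′ to 3′ on the gene's strand.
Kdm4c: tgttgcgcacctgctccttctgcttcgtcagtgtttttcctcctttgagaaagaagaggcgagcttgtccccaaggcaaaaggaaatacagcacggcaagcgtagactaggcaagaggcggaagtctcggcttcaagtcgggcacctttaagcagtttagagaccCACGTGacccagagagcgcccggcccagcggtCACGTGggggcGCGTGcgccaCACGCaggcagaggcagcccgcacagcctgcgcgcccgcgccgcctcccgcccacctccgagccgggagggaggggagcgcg
Smarcal1: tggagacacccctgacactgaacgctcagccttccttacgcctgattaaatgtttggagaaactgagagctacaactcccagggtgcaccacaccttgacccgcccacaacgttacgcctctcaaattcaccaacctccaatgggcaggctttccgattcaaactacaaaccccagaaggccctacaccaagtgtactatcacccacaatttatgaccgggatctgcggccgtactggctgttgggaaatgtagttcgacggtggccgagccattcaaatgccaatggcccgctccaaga
Setdb1: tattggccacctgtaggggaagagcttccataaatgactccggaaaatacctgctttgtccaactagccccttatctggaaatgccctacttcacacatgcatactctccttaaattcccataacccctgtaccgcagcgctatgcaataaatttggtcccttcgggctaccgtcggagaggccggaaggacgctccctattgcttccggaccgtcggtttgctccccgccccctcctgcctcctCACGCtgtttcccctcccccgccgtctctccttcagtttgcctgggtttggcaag
Kat2a: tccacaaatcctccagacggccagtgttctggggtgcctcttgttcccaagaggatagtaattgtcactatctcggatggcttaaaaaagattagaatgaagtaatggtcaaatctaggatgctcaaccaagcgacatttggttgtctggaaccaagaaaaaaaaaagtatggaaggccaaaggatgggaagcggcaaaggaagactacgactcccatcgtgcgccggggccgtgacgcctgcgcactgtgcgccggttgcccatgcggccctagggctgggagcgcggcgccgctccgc

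The 4 matches of the Kdm4c window, 2 of them inside an E-box, begin 85, 53, 42 and 32 bases before the start, and the match of the Setdb1 window begins 5 bases before it. Kdm4c has another RefSeq window at the annotated start of the gene, chr4:74242247-74242546, which holds 0 matches and 0 CpG, and the window shown is the one with the most CpG. The only windows of Smarcal1 and Setd5 lie inside the annotated genes, which begin at chr1:72536695 and chr6:113077262. The Setd5 window, chr6:113104685-113104984, holds 1 CpG. The lack of matches in these 2 windows thus says nothing of the annotated starts. Among all members with a window, 47 of 74 (63.5%) held at least 1 core, against 44.9% of 27025 genes, taking for each gene the window with the most CpG. Member windows were also richer in CpG (median 28.5 against 8), and both cores contain a CpG. Cores were present in 8 of 11 windows of members higher in the posterior piece of 3 of 3 embryos, in 4 of 9 of those higher in the anterior piece and in 34 of 51 of the others, which is a description of letters and not of binding.

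Among members higher in the posterior libraries, Arid2 had the smallest p. Arid2 is the DNA-binding subunit that marks the PBAF form of the SWI/SNF remodeler, and its gene lies at chr15:96287522-96405463 in GRCm38. Its level was 0.85, 3.04 and 4.10 for the anterior pieces of A, B and C, and 5.04, 4.99 and 4.66 for the posterior pieces. The posterior libraries were nearly level and the anterior ones were not, with anterior A far below the rest. The difference was 2.23 ± 0.98 (SE, n = 3 embryos; limma adjusted p = 0.617), and 1.26 without embryo A. Its unadjusted limma p was 0.0469.

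Setdb1, which methylates H3K9 at retroelements, stood at 0.65, 2.18 and 2.36 on the anterior side and 3.14, 3.93 and 4.32 on the posterior side. All posterior values exceeded all anterior ones, and the difference was 2.07 ± 0.95 (SE, n = 3; limma adjusted p = 0.617). Trim28, the corepressor that brings Setdb1 to its targets and is no member by name, was at 3.34, 4.33 and 5.50 against 6.51, 6.15 and 7.55. The groups did not overlap for Trim28 either, with a difference of 2.34 ± 0.72 (limma adjusted p = 0.551). Both genes lay lowest in anterior A.

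Kat2a, the Gcn5 acetyltransferase of the SAGA and ATAC coactivators, was at 0 in anterior A, 3.43 in anterior B and 2.27 in the library labelled anterior C, compared with 3.69, 3.75 and 4.40 on the posterior side. Setd1b, a catalytic subunit of the SET1 complexes that methylate H3K4, was at 0.83, 2.22 and 1.78 against 4.14, 2.54 and 3.77. Neither gene's groups overlapped, although embryo B contributed little: posterior B exceeded anterior B by 0.32 for both genes. The differences were 2.05 ± 1.03 for Kat2a and 1.87 ± 1.03 for Setd1b (limma adjusted p = 0.635 and 0.646). Kdm1a, the LSD1 demethylase of H3K4, was at 3.60, 5.38 and 5.31 on the anterior side and 5.74, 5.42 and 6.24 on the posterior side, a difference of 1.04 ± 0.77 that was 0.48 without embryo A.

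The other posterior leaders were low or overlapping. Smarca1, the SNF2L motor of ISWI remodelers, was at 0, 1.42 and 0.85 on the anterior side and 2.88, 3.39 and 1.05 on the posterior side. Smarcd2, an accessory BAF subunit, was at 1.52, 0 and 2.63 against 3.19, 2.24 and 3.34. Setd6 and Setd4 are SET domain methyltransferases. Setd6 was at 2.49, 2.04 and 0 against 3.55, 4.63 and 1.31, and Setd4 at 0, 2.52 and 3.53 against 2.76, 2.54 and 4.88. Hdac3, the catalytic deacetylase of the NCoR and SMRT corepressors, was at 2.90, 4.99 and 4.25 against 4.53, 5.30 and 4.96. For these 5 genes the posterior piece was higher within each embryo, but the ranges of the domains overlapped, and adjusted limma p-values lay between 0.655 (Smarca1) and 0.76 (Hdac3).

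Among members higher in the anterior libraries, Kdm4c led. Kdm4c removes methyl groups from H3K9, and its gene lies at chr4:74242497-74405864 in GRCm38. Its level was 4.45, 4.08 and 4.07 for the anterior pieces of A, B and C, and 3.62, 2.01 and 0.22 for the posterior pieces. The anterior libraries were level, and the posterior ones spread downward with the lowest value in the library labelled posterior C. The difference was -2.25 ± 1.01 (SE, n = 3; limma adjusted p = 0.617), and -1.45 without embryo C. Its unadjusted limma p was 0.0504.

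Smarcal1, an annealing helicase of the SNF2 family that acts at stalled replication forks, was at 3.20, 3.28 and 2.54 on the anterior side and 1.32, 1.36 and 0.09 on the posterior side, with no overlap and a difference of -2.08 ± 0.95 (limma adjusted p = 0.617). Setd5, a SET domain protein found with HDAC3 corepressor complexes (chr6:113077262-113153432), was among the more abundant members, at 7.37, 6.67 and 7.40 against 5.62, 5.94 and 5.56. Its libraries were tight within each domain, and the difference was -1.44 ± 0.67 (limma adjusted p = 0.617) and between -1.24 and -1.79 with 1 embryo left out. Setd8, which places the single methyl group on H4K20, was at 5.36, 5.66 and 5.81 against 4.56, 4.81 and 4.81, also with no overlap and with a smaller difference of -0.88 ± 0.73 (limma adjusted p = 0.738).

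Of the 12 tested demethylases 3 were higher in the anterior piece of 3 of 3 embryos (background 8.25%), Kdm4c and the next 2 described. In the posterior piece 2 were (background 21.5%), Kdm1a and Kdm6a. The Kdm6a differences in embryos A, B and C were only 0.0001, 0.11 and 0.45. Kdm2a, an H3K36 demethylase that binds CpG islands, was at 4.16, 3.52 and 3.34 on the anterior side and 3.09, 2.39 and 2.35 on the posterior side, without overlap. Kdm3b, an H3K9 demethylase, was at 6.0, 4.22 and 5.70 against 4.36, 3.68 and 3.40, where anterior B lay within the posterior range. The differences were -1.06 ± 0.92 and -1.49 ± 0.81 (limma adjusted p = 0.749 and 0.645). Brd9, the bromodomain subunit of the non-canonical BAF form, was at 4.86, 5.20 and 3.70 against 2.87, 4.18 and 1.57, with a difference of -1.71 ± 0.87 (limma adjusted p = 0.637).

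Hdac5, a class IIa deacetylase that shuttles between nucleus and cytoplasm, was at 3.95, 2.98 and 4.31 on the anterior side and 1.87, 1.78 and 3.62 on the posterior side. Ehmt1, the GLP partner of the H3K9 methyltransferase G9a, was at 5.72, 5.03 and 6.22 against 4.97, 3.79 and 6.12. Cbx2, a chromodomain subunit of Polycomb complex PRC1, was at 2.56, 2.69 and 0.68 against 2.18, 1.38 and 0. The domains overlapped for these 3 genes, with adjusted limma p-values of 0.702, 0.793 and 0.821. The smallest adjusted limma p of any member under any alternative setting run was 0.436.

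**Figure D2:**
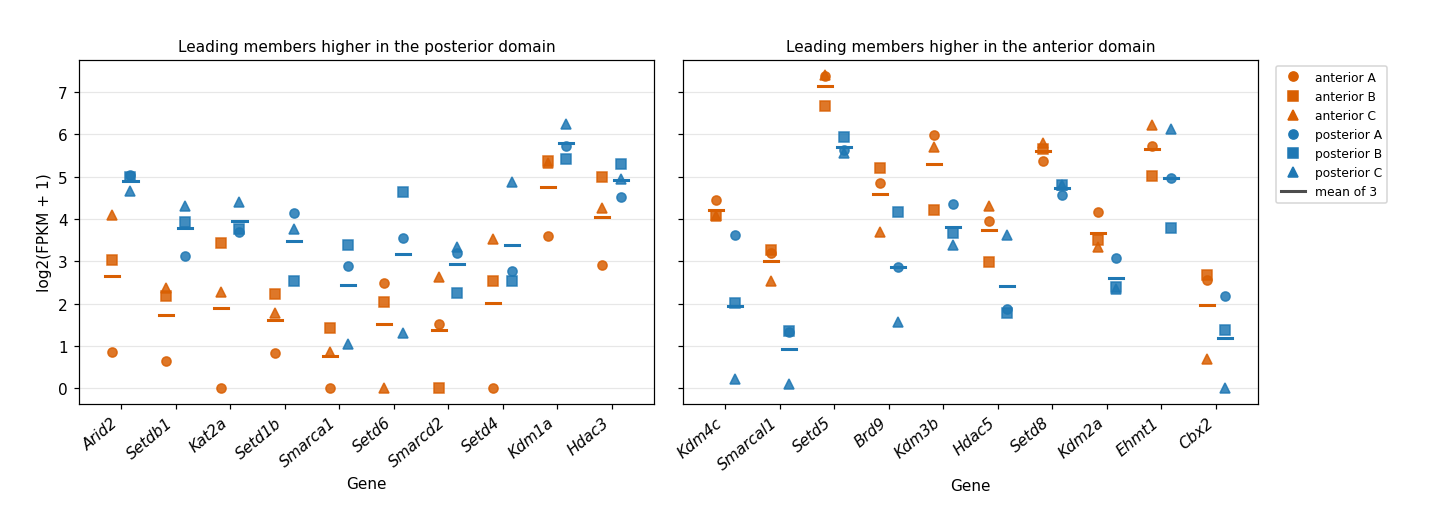
Level in log2(FPKM + 1) of the 10 leading members per direction in anterior (orange) and posterior (blue) libraries; circles, squares and triangles are embryos A, B and C and each bar is the mean of 3. Setd5 and Setd8 show tight, separate groups, while for Arid2 and Kat2a the anterior A circle (0.85 and 0) lies below every other point of the gene.

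Hypoxia response genes were higher on the anterior side, the side for which these anterior members were chosen. All 10 genes of the hypoxia list had a fitted difference below 0, with a median of -1.85, while 64.9% of all genes had one above 0. In 3 of 3 embryos 7 of the 10 were higher in the anterior piece (background 8.25%). The part of hypoxia response genes in the chromatin gene differences was not tested. Kdm3a, Kdm4b and Kdm4c are H3K9 demethylases known as oxygen-sensing or hypoxia-induced genes. Unlike Kdm4c, Kdm3a was at 1.74, 4.14 and 3.42 on the anterior side and 2.64, 2.69 and 1.95 on the posterior side, and Kdm4b at 3.62, 3.28 and 0.39 against 2.02, 1.02 and 2.01. Each was higher in the anterior piece of 2 of 3 embryos, and the exceptions were embryo A for Kdm3a and embryo C for Kdm4b.

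By role, the BAF remodeler gave no shared direction. Of its 14 tested subunits 8 had a higher fitted level in the posterior domain, and the median difference was 0.34 against 0.43 for all genes, with 0.91, -0.07 and -0.19 in embryos A, B and C. Without embryo A the BAF median was -0.47. Arid1a, the defining subunit of canonical BAF, was at 4.19, 6.93 and 8.63 on the anterior side and 8.63, 7.15 and 7.37 on the posterior side, so the lowest value was in anterior A, and posterior A and the library labelled anterior C were the highest. Smarca4, the Brg1 ATPase, was at 4.35, 4.33 and 6.19 against 4.28, 3.49 and 5.96, and its alternative Smarca2 at 5.42, 3.09 and 5.22 against 2.54, 3.24 and 3.89. The core subunit Smarcc1 was steady, at 5.33 to 6.27 in all libraries, while Smarcb1 ranged from 2.70 to 6.84.

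The ISWI and other SNF2 group (5 tested, 2 higher in the posterior domain) had a median of -0.19, or 0.15 with no block and without the library labelled anterior C. The 5 include the pseudogene copy Smarca5-ps, with a difference of -0.48, so this median is not one of enzyme genes alone and its sign is not settled. The main motor Smarca5 was at 6.08, 7.15 and 7.38 on the anterior side and 7.52, 7.90 and 6.69 on the posterior side. CHD remodelers (7 tested, 5 higher in the posterior domain) had a median of 0.39, which turned to -0.06 after quantile normalization. Chd1, which binds H3K4 methylation at active genes, was at 3.71, 5.51 and 6.74 against 6.11, 5.66 and 6.04. Chd4, the motor of the NuRD complex, was nearly even in the anterior pieces, at 4.66, 4.69 and 4.64, and at 5.19, 3.99 and 5.63 in the posterior ones. Chd9 was low and uneven, at 3.01, 1.68 and 0.12 against 2.83, 2.72 and 1.70, and no CHD gene was higher in 1 domain in all 3 embryos.

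Of the 5 PRC2 genes Suz12, Eed and Ezh2 had ranges of 0.62, 1.20 and 1.36 over the 6 libraries, and Ezh1 and Jarid2 had ranges of 2.08 and 2.14, where the member median was 2.40. Ezh2, the H3K27 methyltransferase, was at 6.46, 6.76 and 7.51 on the anterior side and 6.32, 7.12 and 7.67 on the posterior side. Suz12, its scaffold, was at 5.75, 5.94 and 5.78 against 5.44, 6.05 and 5.78. Eed, which reads the mark, lay between 5.04 and 6.24. Jarid2, the accessory subunit that helps recruit PRC2, was at 5.72, 4.90 and 6.90 against 7.04, 6.19 and 6.53. The group median was 0.20, and -0.10 after quantile normalization and -0.11 after centring. Ezh1, the alternative catalytic subunit, was low, at 1.29, 1.58 and 0.73 against 1.41, 2.17 and 2.80, and was higher in the posterior piece of each embryo.

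PRC1 members were low apart from Rnf2, the Ring1B ubiquitin ligase of H2A, which was at 5.02, 5.68 and 4.31 on the anterior side and 5.87, 6.32 and 3.59 on the posterior side. Cbx7, a chromodomain subunit known from pluripotent cells, was at 0.34, 3.18 and 0.56 against 3.39, 2.75 and 3.19. Ring1, the alternative ligase, was at 0 in anterior A and in the library labelled posterior C and at 4.12 in the library labelled anterior C. The PRC1 median over 5 tested genes was 0.26, but -0.08 after quantile normalization and 1.60, -0.43 and -0.68 in the separate embryos, and it was -0.04 without embryo A.

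HP1 proteins bind methylated H3K9, and 2 of them had the highest mean levels of all 96 members. Cbx3, HP1 gamma, was at 10.49, 12.28 and 12.46 on the anterior side and 12.0, 11.60 and 11.90 on the posterior side. Cbx1, HP1 beta, was at 6.96, 7.72 and 7.99 against 8.70, 7.75 and 7.61. Cbx5, HP1 alpha, was at 4.35, 5.73 and 5.82 against 5.96, 6.0 and 5.86, so its groups did not overlap although all libraries but anterior A lay close together. The HP1 median of 0.46 was -0.18 without embryo A. Of the H3K9 methyltransferases, Setdb1 and Ehmt1 stood on opposite sides, as given above. Ehmt2, the G9a enzyme, was at 3.82, 3.03 and 1.95 against 3.78, 2.0 and 2.89, and the median of the 4 genes was 0.22, or -0.27 after quantile normalization, -0.09 after centring and -0.02 without embryo C.

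The other SET domain genes (7 tested, 4 higher in the posterior domain) had a median of 0.55, and 0.05 without embryo C. Setd2, the H3K36 trimethylating enzyme, was at 4.18, 5.13 and 3.77 on the anterior side and 4.63, 4.49 and 5.61 on the posterior side. Setd3, an actin histidine methyltransferase, was at 4.31, 4.04 and 0.65 against 4.0, 4.59 and 5.43, and its difference within embryo C was 4.78. The 12 tested demethylases include the joined Kdm6b and Tmem88 entry, with a difference of 0.37. Of the 12, 6 were higher in the posterior domain, as were 64.9% of all genes, and the median was -0.01. It was -0.31 after quantile normalization, -0.33 after centring and -0.25 without embryo A, but 0.20 without embryo B and 0.18 with no filter. Kdm6a, which removes H3K27 methylation, was the steadiest member, at 4.99, 4.53 and 4.41 against 4.99, 4.64 and 4.86. The H3K4 demethylase Kdm5b lay between 4.72 and 6.36 and its relative Kdm5a between 4.12 and 5.35. The joined Kdm6b and Tmem88 entry was at 6.39, 7.24 and 5.98 against 7.86, 5.91 and 6.96.

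Acetyltransferases (4 tested, 2 higher in the posterior domain) had a median of 0.45, which came to 2.41, -0.21 and 0.45 in the 3 embryos. It was 0.21 without embryo A, 1.18 without embryo B and -0.018 once the block and anterior A were dropped. Kat5, the Tip60 enzyme, was the highest of them, at 2.60, 4.70 and 5.16 on the anterior side and 5.01, 3.97 and 6.66 on the posterior side. Class I and IV deacetylases (4 tested, 3 higher in the posterior domain) had a median of 0.82, which was 0.43 without embryo A and 0.25 once the block and anterior A were dropped. Hdac2 was at 4.25, 5.86 and 6.04 against 5.87, 6.63 and 5.96, and Hdac1 at 5.37, 5.14 and 4.43 against 4.13, 3.85 and 5.41. These class I enzymes, which share complexes, lay on opposite sides in each of the 3 embryos, Hdac2 higher in the posterior piece of A and B and Hdac1 in that of C. Hdac8 was near the detection limit, at 0, 1.18 and 0 against 1.65, 0.40 and 2.32.

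Class II deacetylases (4 tested, 2 higher in the posterior domain) had a median of -0.20, which was 0.05 without embryo B and 0.13 without embryo C. Hdac4, a class IIa enzyme, was at 2.83, 4.02 and 5.0 on the anterior side and 4.0, 3.66 and 4.35 on the posterior side. The sirtuins, NAD-dependent deacylases, were the group most uneven between embryos, with a median of -0.39 in the fit and 2.38, -0.48 and -1.02 in embryos A, B and C, and it was 0.80 without embryo B and 1.04 without embryo C. Sirt1, Sirt3, Sirt4 and Sirt5 were at 0 in anterior A. Sirt6, a chromatin-bound deacetylase and the most abundant sirtuin, was at 5.50, 8.07 and 8.36 against 7.87, 4.55 and 7.71. Sirt1 was at 0, 4.21 and 2.61 against 3.82, 4.18 and 2.19, and its difference of 1.13 was -0.22 without embryo A.

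All 5 BET and other bromodomain genes had a fitted difference above 0, as had 64.9% of all genes, and 3 of 5 did after quantile normalization (all genes 49%). Their median of 0.33 lay below the 0.43 of all genes, it was 0.03 after quantile normalization and 0.02 after centring, and none of the 5 was higher in the posterior piece of 3 of 3 embryos (background 21.5%). Brd3, a BET reader of acetylated histones, was at 6.13, 6.34 and 7.65 on the anterior side and 7.38, 6.27 and 7.57 on the posterior side, and its difference of 0.37 was -0.07 without embryo A. The remaining ARID genes (5 tested) had a median of 0.04, and -0.48 after quantile normalization. Arid4b, a subunit of the Sin3 deacetylase complex, was at 6.22, 5.60 and 5.99 against 5.39, 5.28 and 5.70, with differences of -0.83, -0.32 and -0.29 in the 3 embryos. Arid5b was at 0.17 in the library labelled anterior C and between 2.17 and 4.99 elsewhere.

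**Figure D3:**
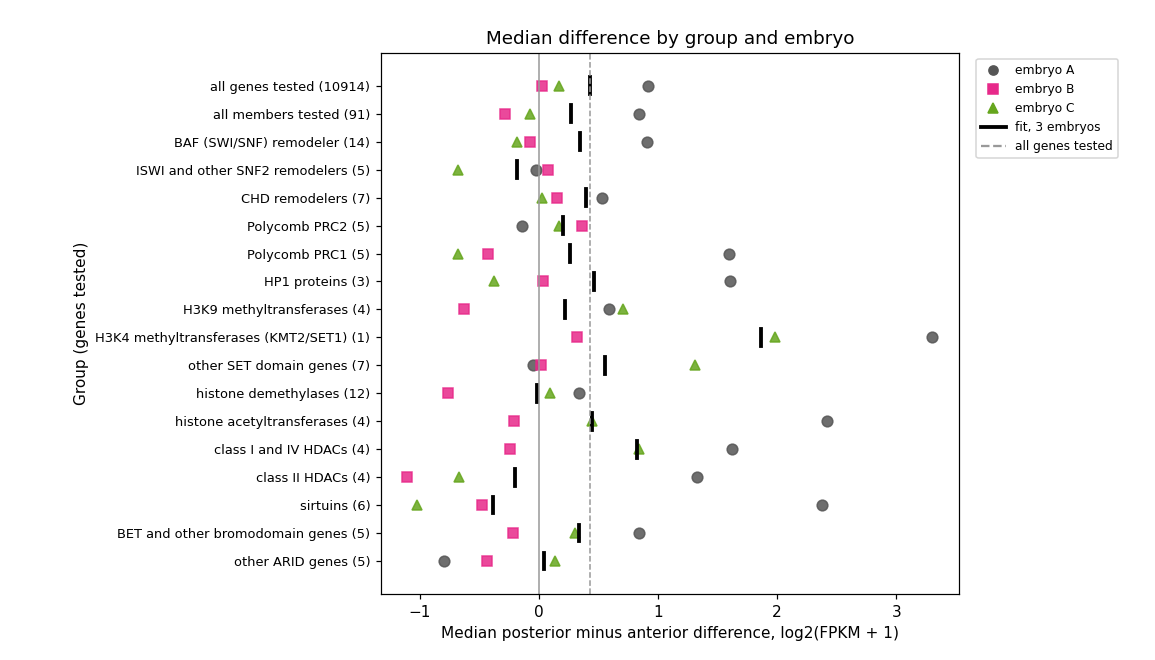
Median posterior minus anterior difference in log2(FPKM + 1) for each group of members (number of genes tested in parentheses), in the fit (black bar) and in the embryos (A circles, B squares, C triangles); the dashed line is the median of all genes tested, 0.43. Embryo A lies to the right in most groups. After quantile normalization, which is not drawn, the medians of the PRC1, PRC2, CHD, H3K9 and other ARID groups, of all members and of all genes were below 0.

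The balance between related genes was compared within each library. A library's overall scale cancels in such a difference only where both genes are well above 1 FPKM, since 1 FPKM was added before taking logs, so pairs with a low gene still carry it. Of 22 listed pairs 17 were in the table, and in 9 pairs the same gene was higher in all 6 libraries. Ezh2 exceeded Ezh1 by 4.87 to 6.78, and Smarcc1 exceeded Smarcc2 by 2.55 to 5.92. Arid1a exceeded Arid1b by 1.73 to 6.85, and Chd4 exceeded Chd3 by 2.83 to 4.30, while Ehmt2 minus Ehmt1 lay between -4.27 and -1.19. These orders, on a scale per transcript length, held in both domains.

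In 7 of the 17 pairs the balance differed between the domains in the same direction in 3 embryos. Each had an exact sign-flip permutation p of 0.25 (two-sided), the smallest that 3 embryos allow, so none could pass a threshold of 0.05. Random signs would give such a pair with a probability of 0.25. For single genes the shares in 3 of 3 embryos were 21.5% (posterior) and 8.25% (anterior). The Kdm2a minus Kdm2b difference was lower in the posterior piece, with changes of -1.0, -1.15 and -2.31 for embryos A, B, C and a mean of -1.49 ± 0.72 (SD, n = 3). Cbx7 minus Cbx2 was higher in the posterior piece, with a mean of 2.54 ± 1.44, and Kdm4a minus Kdm4c likewise, with 2.95 ± 1.80. In the Cbx and Kdm4 pairs at least 1 gene was near 0 in some libraries. Hdac4 minus Hdac5 gave 1.37 ± 1.67, where embryo C added 0.04. The remaining pairs of this kind were Ehmt2 minus Ehmt1 (0.65 ± 0.42), Ezh2 minus Ezh1 (-0.80 ± 0.96) and Chd4 minus Chd3 (-0.39 ± 0.30).

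**Figure D4:**
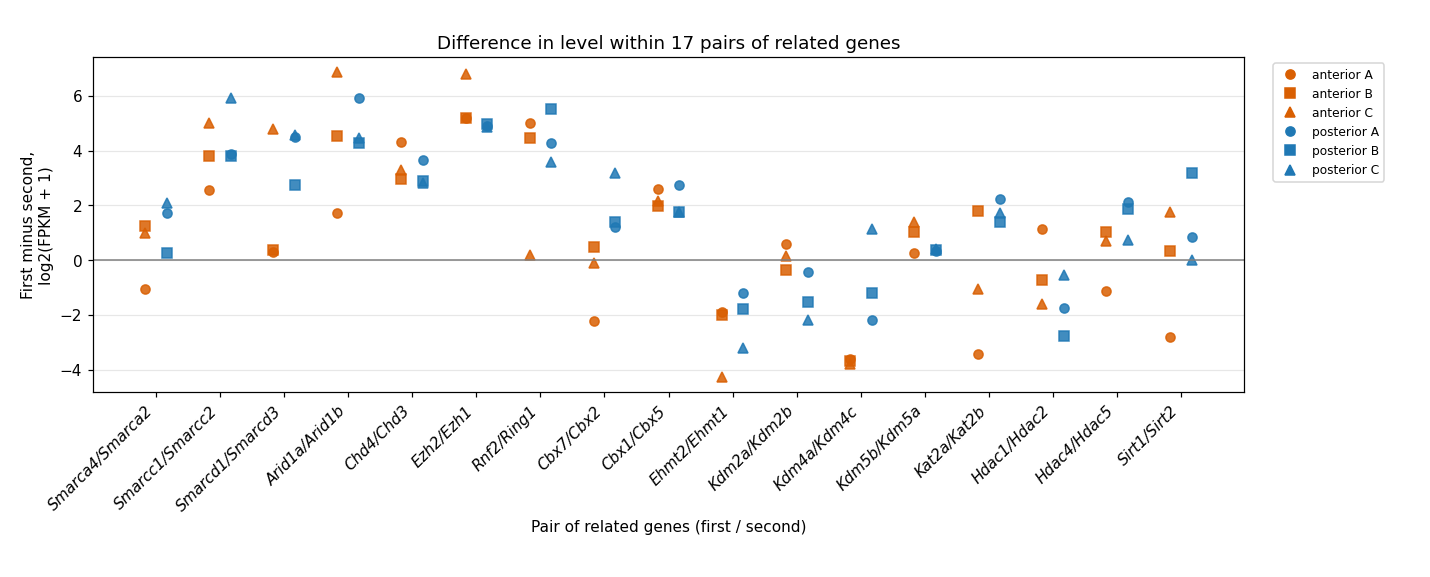
Difference in level between the first and the second gene of 17 pairs, in log2(FPKM + 1), in anterior (orange) and posterior (blue) libraries of the embryos (A circles, B squares, C triangles). Ezh2 stays at least 4.87 above Ezh1 in all 6 libraries, and the 3 anterior points of Kdm4a/Kdm4c lie together, between -3.79 and -3.63, below the posterior ones.

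Members were also compared among the 3 embryos. No member differed at an adjusted p under 0.05 (limma F test; smallest adjusted p 0.996; background 0%), and 0 members did at an unadjusted p, against 2.77% of all genes. Kat8, the MOF acetyltransferase of H4K16, had the smallest unadjusted limma p (0.0565) and was at 2.22 and 4.65 in the pieces of embryo A, 5.40 and 4.10 in B and 1.83 and 0.22 in C. Smarca4 was at 6.19 and 5.96 in the pieces of embryo C and between 3.49 and 4.35 in the other 4 libraries. Rnf2 was lower in embryo C, at 4.31 and 3.59, than in the others, at 5.02 to 6.32. Setdb2, an H3K9 methyltransferase, was at 2.52 and 2.29 in embryo B and between 0 and 1.38 elsewhere. Across the members, libraries correlated at Spearman 0.71 to 0.91, and anterior A with each other library at 0.71 to 0.80, as a description over 96 genes that share a library and its depth.

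Partner subunits of the same complexes were taken from lists of known subunits outside the name rule. Of 122 genes listed 113 were in the table and 106 were tested; 0 passed the adjusted limma threshold, 6 were higher in the posterior domain at an unadjusted p under 0.05 and 0 in the anterior domain, against backgrounds of 7.24% and 0.788%. Ing3, a subunit of the Kat5 complex, led these lists, at 0, 2.28 and 3.88 on the anterior side and 5.34, 5.24 and 5.87 on the posterior side, a difference of 3.43 ± 0.97 (limma adjusted p = 0.52). Phc1, a Polyhomeotic subunit of PRC1, was at 1.35, 1.71 and 3.33 against 4.92, 5.16 and 4.39. Actl6a, the BAF actin-like subunit, was at 1.45, 4.98 and 4.47 against 5.62, 6.03 and 5.81. All 3 genes had no overlap between the domains, and anterior A was the lowest library for each.

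All 10 NuRD partners had a fitted difference above 0, as had 64.9% of all genes, with a median of 0.84, and 7 of 10 did without embryo A, with a median of 0.32 (all genes 55.5% and 0.17). Mta2, a NuRD subunit, was at 0, 3.30 and 0.50 on the anterior side and 3.66, 3.00 and 5.53 on the posterior side. Of 11 KMT2 and SET1 partners 10 had a fitted difference above 0, with a median of 0.93, and the shared subunit Dpy30 was at 0, 7.29 and 6.87 against 8.06, 8.20 and 7.52. The medians of these NuRD and KMT2 lists came to 1.81 and 2.25 in embryo A, to 0.07 and 0.87 in embryo B and to 0.44 and 0.46 in embryo C. The other remodelers (11 tested) had a median of -0.64, and 4 of them had no overlap with the anterior libraries on top (background 3.77%). Baz1b, a partner of Smarca5, was among these, at 5.83, 5.57 and 6.06 on the anterior side and 4.59, 4.76 and 4.96 on the posterior side. Jmjd6, a 2-oxoglutarate oxygenase, was at 5.97, 6.0 and 5.98 against 5.38, 3.58 and 3.84 (difference -1.71 ± 0.78, limma adjusted p = 0.617).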

How the data were processed

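The 6 Smart-seq2 libraries are 3 anterior and 3 posterior pieces of ETX-embryos A, B and C, made with 18 preamplification cycles and a HiSeq 2500 per the labels' protocols. Per the labels' protocols, HTSeq-count was used on reads mapped to Ensembl 38.77. Cufflinks 2.0.2, TopHat2 2.0.4 and the mm10 build come from the submitters' processing notes. The sources used here do not say which tool gave the values. The deposited table holds log2 values, taken as log2(FPKM + 1) because undoing that scale left numbers with no more than 6 significant digits for 99.1% to 99.5% of entries. The absolute depth is unknown; relative depth was taken from the steps of low values, where 6.68% to 13.9% of low genes lay on a step.

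Genes whose mean reached 1 FPKM were fitted with limma 3.58.1 (R 4.3.3) on log2(FPKM + 1), with a pseudocount of 1 FPKM, a mean-variance trend and the embryo as a block, two-sided, with Benjamini-Hochberg adjustment over all 10914 genes (2 residual and 7.5 prior degrees of freedom). The script was tested on simulated data. Both pieces of an embryo come from 1 individual, which is where the pairing comes from; their deviations from the domain means correlated at -0.07, 0.04 and -0.03 in embryos A, B and C. A difference on this scale understates that of low genes. Values were named for up to 10 members per direction with the smallest p among those higher in 1 domain in 3 of 3 embryos, for the highest member and the one with the smallest p in each of 16 groups, for the 6 with the smallest p among embryos, for pairs of related genes and for up to 2 partners per list; Smarcc1, Smarcb1, Smarca2, Chd4, Suz12, Eed, Ezh1, Kdm6a, Kdm3a, Kdm4b, Kdm5a, Kdm5b, Setd2, Setd3, Arid5b, Hdac1, Ring1 and Cbx1 are named as further members. A few items are not reported here. The members and lists were chosen with earlier results of these data known. Alternatives were no block, a pseudocount of 0.1 FPKM, no filter, quantile normalization, median centring, leaving out each embryo, and no block without anterior A; no block without the library labelled anterior C was added after seeing the data. Promoter windows were found by symbol for 74 of 96 members in RefSeq (GRCm38.p6).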

Additional observations from a re-analysis of the deposited data

How the results depend on the processing

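No member passed the adjusted threshold under any of the alternatives run. The 20 leading members were chosen for 1 direction in 3 of 3 embryos, so most settings could not turn their sign. The counts of members at an unadjusted limma p under 0.05, 1 posterior and 0 anterior, became 2 and 3 with no replicate block (8.36% and 1.09% of all genes), 0 and 0 with a pseudocount of 0.1 FPKM (6.95% and 0.641%), 0 and 5 after quantile normalization (4.83% and 2.53%), and 0 and 4 after median centring (5.03% and 1.88%). Dropping anterior A along with the block gave 0 and 1 (5.65% and 1.75%). Dropping the library labelled anterior C along with the block, a setting chosen after seeing the data, gave 4 and 3 (8.27% and 2.13%). With 1 embryo left out they lay between 0 and 2 for posterior (3.19% to 8.23% of all genes) and between 0 and 2 for anterior (0.33% to 1.28%). The counts of members higher in 1 domain in every embryo kept, 14 posterior and 13 anterior, became 8 and 20 after quantile normalization (14.5% and 17.4% of all genes) and 9 and 16 after centring (16.1% and 14.8%). With 1 embryo left out, where fewer embryos need to concur, they lay between 20 and 32 (28.2% to 38.5% of all genes) and between 19 and 27 (13.1% to 20.6%). The count among embryos at an unadjusted limma p under 0.05, 0 in the main fit, became 1 after centring and 0 to 2 with 1 embryo left out. The share of all genes was 2.77% in the main fit and is not given for these settings, so nothing is read from the change. The CHD median of 0.39 became -0.059 after quantile normalization. With 1 embryo left out, the Sirt1 difference of 1.13 lay between -0.22 (without A) and 1.90 (without C) and the Brd3 difference of 0.37 between -0.071 (without A) and 0.59. With the block and anterior A dropped, Sirt1 was at -0.0074. Within embryos A, B and C its differences were 3.82, -0.02 and -0.41, and those of Brd3 were 1.24, -0.07 and -0.07. The sign of both fits thus rests on embryo A, and why that embryo differs was not tested. Values at 0 limit what can be read of low members, of which 12 were at 0 in anterior A, and 3 embryos limit all tests. The part of depth in these values was not tested.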

Other observations

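Genes of the KMT2 and KAT6/KAT7 families stand in the table under older symbols outside the name rule, and were matched to RefSeq by synonym after their values could be seen. Mll5 (Kmt2e, a SET domain protein without clear methyltransferase activity) had levels of 5.09, 5.04 and 6.16 for the anterior pieces of A, B and C and 4.36, 3.93 and 2.30 for the posterior pieces, with no overlap and a difference of -1.90 ± 0.90 (SE, n = 3; limma adjusted p = 0.623). Mll1 (Kmt2a, an H3K4 methyltransferase) was at 3.38, 3.42 and 4.03 against 2.93, 1.85 and 2.51, and Mll3 (Kmt2c, an enhancer H3K4 methyltransferase) at 3.23, 3.21 and 2.60 against 2.06, 2.84 and 2.38. These 3 genes were higher in the anterior piece of each embryo. Wbp7 (Kmt2b) was low and on the other side, at 0.86, 1.70 and 0.90 against 2.17, 1.81 and 2.23, and the entry that joins Mll2 with Prkag1 was at 2.43, 4.42 and 4.84 against 5.49, 4.37 and 5.53. The median difference of these 5 entries was -0.59.

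The acetyltransferases Myst3 (Kat6a) and Myst4 (Kat6b) were low, at 1.20, 2.51 and 0.56 against 2.70, 2.90 and 2.61 and at 1.60, 2.47 and 0.42 against 2.55, 2.21 and 3.07. Myst2 (Kat7), which acetylates H3K14, was at 2.51, 3.18 and 4.42 against 3.87, 3.76 and 4.41. None of these 8 entries passed the adjusted limma threshold, and their smallest unadjusted p was 0.0638, for Mll5.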
